A study of Mus musculus with 84 samples.

Results

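The response of fat and liver to one and the same dose of rosiglitazone (RSG) was compared in db/db mice. The members were 12 of the 84 samples of the series, chosen by their labels: inguinal adipose tissue (IAT) of 6 mice and liver of 6 mice that had received RSG by mouth at 280 µmol/kg for 18 days. The mice were male BKS Cg-m+/+ Leprdb/J (db/db), 8 weeks old when obtained, and all of them, the controls included, lacked a working leptin receptor, a defect known for obesity and diabetes. Each mouse was compared with pooled RNA of 6 vehicle-treated db/db mice of that tissue, by labelling treated mouse and pool with opposite dyes on 1 array and exchanging the dyes on another. Values below are log2 ratios of treated mouse over tissue pool, the mean of both arrays, and a difference is IAT minus liver. The pool is 1 control sample per tissue, so the spread between untreated mice is in no test that uses it. Groups of 6 at 28 and 84 µmol/kg RSG and at 280 µmol/kg of a compound that the labels call only S, in both tissues, are used beside them. The methods give 6 mice to a dose, and the labels do not say whether the same replicate number in IAT and liver is the same mouse.

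RSG is an agonist of PPARγ, a nuclear receptor that pairs with RXR on DNA and that drives the formation of adipocytes and their uptake and storage of fatty acids. Normal liver makes little PPARγ, while the fatty liver of obese rodents makes more of it and then expresses genes otherwise typical of fat. White fat exposed to PPARγ agonists is known to gain mitochondria and genes of brown fat, the tissue that burns fatty acids for heat. Pparg itself read -0.45, 0.16 and 0.43 in IAT (lowest, median and highest of 6 mice) and 0.20, 0.31 and 0.46 in liver, and its difference of -0.26 ± 0.13 (SE) was not called (adjusted p = 0.0917). It was named after its values were seen, as were Me1, Ndufs7, Acot2 and Pnpla2 below.

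The tissues showed their labels: 12 of 13 adipocyte markers were brighter on the IAT arrays and 16 of 16 hepatocyte markers on the liver arrays. Liver gave the weaker readings. A median of 70.3% of 41174 probes stood well above background in treated IAT (65.7 to 75.9%) and 57.3% in treated liver (52.3 to 63.2%), and the median signal over background was 3.43 in IAT and 1.80 in liver. All 12 IAT arrays were scanned on 1 day and the 12 liver arrays on 2 other days, so scan day and tissue cannot be told apart. Replicate 2 stood apart in both tissues: its correlation with the other mice over all sequences was 0.34 to 0.75 in IAT and 0.33 to 0.48 in liver, where the remaining mice reached 0.70 to 0.90 in IAT and 0.72 to 0.86 in liver.

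Of 23965 sequences above background in both tissues, 13118 (54.7%) differed in response between IAT and liver at an adjusted p under 0.05 in limma. In IAT 8411 of them (35.1% of those tested) were higher than in liver and 4707 (19.6%) lower, and without replicate 2 of both tissues the counts were 10161 and 5553. The split rests partly on the scale, since the median over all sequences was 0.06 in IAT and -0.03 in liver: with every sample centred on its median, 51.2% of the calls were higher in IAT, against 64.1% as measured. Large differences ran the other way. At 2-fold or more, 511 sequences were higher in IAT and 1004 lower, and at 4-fold or more 41 were higher and 239 lower. The lower ones include genes, such as Tspan1, that stood far below the shared IAT pool at every dose, as described below. Their part in these counts was not tested. Against the pools, 8776 sequences (36.6%) were higher and 6066 (25.3%) lower in IAT, and 4385 (18.3%) were higher and 5785 (24.1%) lower in liver. Opposite responses were called for 1459 sequences with IAT up and liver down and for 1105 with IAT down and liver up. Both tissues rose with a larger rise in IAT for 699 sequences and with a larger rise in liver for 173, and both fell with a deeper fall in IAT for 351 and in liver for 207. Without replicate 2 of both tissues these counts were 2496, 1512, 1331, 317, 691 and 447. Reduced to 1 probe per gene with a matched RefSeq accession, 6646 of 11496 genes differed, 3802 higher in IAT and 2844 lower.

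Genes of the mitochondrion rose in IAT, and in liver many rose by far less. For respiratory complex I, the entry point of electrons from NADH, 32 of 33 measured genes were higher in IAT than in liver and none lower, with a median difference of 0.53 beside 0.11 over all sequences. All 33 rose over the IAT pool (median 0.59), while in liver 16 were called higher and 1 lower (median 0.12). The exception for the difference was Ndufs7, at 0.52 in IAT and 0.44 in liver (adjusted p = 0.132). In complexes III and IV, which pass electrons on to oxygen, 19 of 21 genes were higher in IAT and none lower. The ATP synthase had 14 of 15 higher, the citrate cycle 20 of 22 with 1 lower, and the mitochondrial ribosome 40 of 42. Mitochondrial fatty acid oxidation had 19 of 21 higher and 2 lower, with a median of 0.99 in IAT and 0.21 in liver. In liver 12 of the 21 were called higher than the pool and 2 lower, as were 13 and 1 of the citrate cycle, 13 and 0 of complexes III and IV, 5 and 0 of the ATP synthase and 10 and 1 of the mitochondrial ribosome. Over all sequences 18.3% were higher and 24.1% lower in liver than its pool, and 35.1% were higher in IAT than in liver. Without replicate 2 of both tissues the ATP synthase had 13 higher in IAT than in liver and 1 lower, and the citrate cycle 20 and 2; the counts of the other 4 lists were equal.

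**Figure D1:**
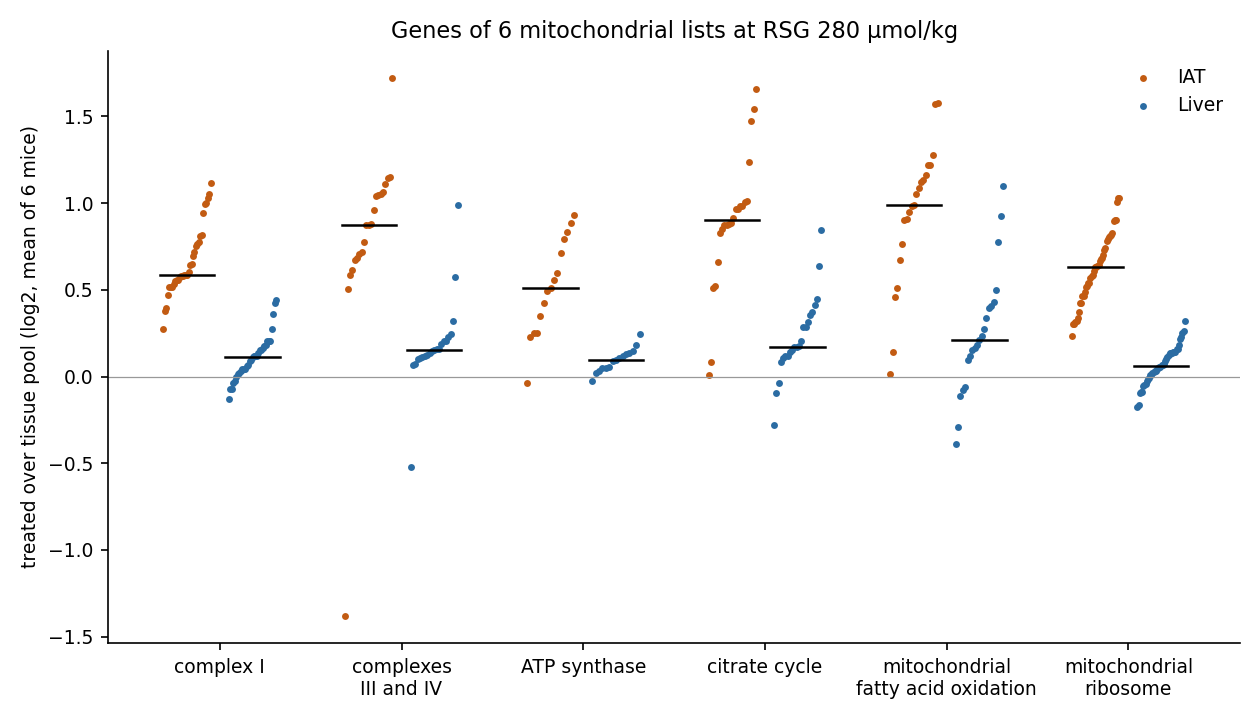
Log2 ratio over the tissue pool (mean of 6 mice, vertical axis) of each measured gene of 6 mitochondrial lists at RSG 280 µmol/kg, genes sorted by value within a list, IAT in orange left of liver in blue, with the list median as a black bar. The IAT medians run from 0.51 to 0.99 and the liver medians from 0.06 to 0.21.

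Single genes show the spread between mice. Over all sequences, the IAT and liver values did not overlap in 28.25%, and the genes named here were chosen by a small p. Sucla2, a subunit of the ATP-forming succinyl-CoA ligase of the citrate cycle, read 1.2, 1.57 and 1.76 in IAT and 0.08, 0.14 and 0.27 in liver, a difference of 1.39 ± 0.09 (adjusted p = 2.00e-07). Acadvl, which opens the oxidation of very long fatty acids, read 1.18, 1.6 and 1.82 in IAT and 0.09, 0.14 and 0.27 in liver (difference 1.41 ± 0.09, adjusted p = 3.60e-07). For both genes the lowest IAT mouse lay above the highest liver mouse. Acaa2, the thiolase of that pathway, averaged 1.22 ± 0.25 in IAT and -0.11 ± 0.03 in liver (SD, n = 6 each), and Hadha, the large subunit of the trifunctional protein, 1.28 ± 0.20 in IAT and 0.10 ± 0.12 in liver. Uqcrfs1, the iron-sulfur subunit of complex III, differed by 1.05 (adjusted p = 5.85e-07), Cox7b of complex IV by 0.94 (adjusted p = 1.53e-06) and Mrpl15 of the mitochondrial ribosome by 1.19 (adjusted p = 2.26e-06). The exceptions are as clear: Crat, which makes carnitine esters of short acyl groups, read 0.37, 0.46 and 0.57 in IAT and 0.80, 1.19 and 1.35 in liver (difference -0.64, adjusted p = 0.000149). The other one, Acot2, a mitochondrial thioesterase, differed by -0.78 (adjusted p = 0.00115).

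Since so many genes of these complexes moved together, the promoters of 1 gene per list are printed, from 250 bases before to 50 after the RefSeq start (build GRCm38.p6), on the strand of the gene. Capitals mark the letters GCGCANGCGC, the core of the motif bound by NRF1 (a factor known for promoters of nuclear genes of the mitochondrion), searched on both strands. Each gene is the member of its list with the smallest adjusted p among those that hold the motif. Promoters on 1 chromosome were left out of this choice. They are Sucla2 of the citrate cycle (chr14:73552536-73552835, + strand), Ndufa6 of complex I (chr15:82354242-82354541, - strand), Uqcrc1 of complexes III and IV (chr9:108936398-108936697, + strand), Atp5o of the ATP synthase (chr16:91931581-91931880, - strand) and Mrps9 of the mitochondrial ribosome (chr1:42850983-42851282, + strand).
Sucla2: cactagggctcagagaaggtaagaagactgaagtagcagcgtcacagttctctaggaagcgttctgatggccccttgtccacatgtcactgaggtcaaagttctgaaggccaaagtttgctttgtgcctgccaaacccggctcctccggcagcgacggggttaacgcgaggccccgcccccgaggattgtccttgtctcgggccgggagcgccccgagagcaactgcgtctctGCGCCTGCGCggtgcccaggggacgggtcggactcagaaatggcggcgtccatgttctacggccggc
Ndufa6: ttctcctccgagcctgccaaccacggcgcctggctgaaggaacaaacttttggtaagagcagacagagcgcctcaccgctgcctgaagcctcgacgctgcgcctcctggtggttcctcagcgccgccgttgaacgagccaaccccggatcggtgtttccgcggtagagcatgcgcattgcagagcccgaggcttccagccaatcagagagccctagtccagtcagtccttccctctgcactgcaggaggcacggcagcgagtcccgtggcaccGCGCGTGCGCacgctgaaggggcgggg
Uqcrc1: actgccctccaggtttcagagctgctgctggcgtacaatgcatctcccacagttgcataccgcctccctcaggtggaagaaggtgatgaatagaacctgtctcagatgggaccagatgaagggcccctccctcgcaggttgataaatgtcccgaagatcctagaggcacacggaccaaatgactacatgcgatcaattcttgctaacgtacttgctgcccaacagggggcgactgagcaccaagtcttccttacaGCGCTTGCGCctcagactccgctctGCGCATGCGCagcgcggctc
Atp5o: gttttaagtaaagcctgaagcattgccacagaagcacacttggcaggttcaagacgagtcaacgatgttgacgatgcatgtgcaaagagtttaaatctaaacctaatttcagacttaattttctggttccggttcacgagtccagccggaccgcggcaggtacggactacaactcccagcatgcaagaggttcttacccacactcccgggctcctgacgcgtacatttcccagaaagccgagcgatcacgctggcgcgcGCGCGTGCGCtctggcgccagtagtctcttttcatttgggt
Mrps9: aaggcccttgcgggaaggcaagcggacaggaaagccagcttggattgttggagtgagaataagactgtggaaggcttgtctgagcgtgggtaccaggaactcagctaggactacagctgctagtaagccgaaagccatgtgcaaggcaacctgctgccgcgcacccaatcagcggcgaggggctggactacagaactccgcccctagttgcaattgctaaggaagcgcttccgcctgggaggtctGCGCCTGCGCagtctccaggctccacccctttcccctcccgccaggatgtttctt
Ndufa6 averaged 0.75 ± 0.07 in IAT and 0.12 ± 0.06 in liver, Uqcrc1 0.71 ± 0.13 in IAT and 0.18 ± 0.10 in liver, Atp5o 0.84 ± 0.10 in IAT and 0.10 ± 0.08 in liver, and Mrps9 0.64 ± 0.12 in IAT and 0.07 ± 0.07 in liver (SD, n = 6 each). In these 4 genes, too, the IAT mice lay above the liver mice without overlap, beside 28.25% of all sequences with no overlap in either direction. Of 133 measured genes in the 5 lists, 111 had a promoter in the RefSeq table, and 22 of these (19.8%) held the motif, beside 1402 of 27025 genes with a promoter (5.19%) and 4.60% of all 32851 promoters. The letters AAGGTCA, the site of the estrogen-related receptors, were in 12 of the 111 (10.8%), beside 5.38% of all genes with a promoter and 4.72% of all promoters. By list, the NRF1 letters were in 6 of 14 for the ATP synthase, 4 of 19 for the citrate cycle, 6 of 29 for complex I, 2 of 14 for complexes III and IV and 4 of 35 for the mitochondrial ribosome, beside 2 of 17 for fatty acid oxidation, 3 of 25 for the cytosolic ribosome, of whose 36 genes 22 were lower in IAT than in liver, and 0 of 20 for collagens and matrix. A match describes the letters only.

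Genes that switch on oxidative and brown fat programs rose in IAT as well, and in liver several of them fell or stood still while others rose. Ppargc1a, the coactivator best known for driving mitochondrial genes, read 0.47, 0.70 and 0.81 in IAT and -1.04, -0.66 and -0.03 in liver, opposite directions without overlap (difference 1.28 ± 0.15, adjusted p = 1.93e-05). Its relative Ppargc1b averaged 0.82 in IAT and -0.12 in liver (adjusted p = 8.83e-06). Ppara, the receptor that controls fatty acid oxidation, read 1.03, 1.64 and 1.8 in IAT and -0.02, 0.35 and 0.54 in liver (difference 1.26 ± 0.13, adjusted p = 1.04e-05). Cpt1b, the muscle and brown fat form of the enzyme that lets fatty acids into mitochondria, averaged 1.57 ± 0.22 in IAT and 0.50 ± 0.17 in liver (adjusted p = 8.10e-06). In the list of thermogenic and brown fat genes 10 of 14 were higher in IAT than in liver and none lower, and all 14 rose over the IAT pool. In liver 7 of the 14 rose over the pool and 1 fell. Of 5 measured brown adipocyte markers 5 rose in IAT and 3 in liver, and 2 were higher in IAT than in liver. Over all sequences 36.6% rose in IAT and 18.3% in liver, and 35.1% were higher in IAT than in liver. Dio2, which makes active thyroid hormone, read -0.24, 2.29 and 2.67 in IAT and -0.26, 0.01 and 0.06 in liver (difference 1.96 ± 0.40, adjusted p = 0.00143): replicate 2 of IAT was the one IAT mouse below its pool, and without replicate 2 of both tissues the difference was 2.41. The other genes of this kind that stood out rose in both tissues. Elovl3, an elongase of brown fat, rose in both tissues, to 2.88 ± 0.48 in IAT and 2.1 ± 0.41 in liver (adjusted p of the difference 0.0135). Cidea, a lipid droplet protein of brown fat, read 2.82, 3.54 and 3.95 in IAT and 2.62, 3.7 and 4.84 in liver, ranges that overlap, with a difference of -0.23 with a 95% interval of -0.95 to 0.48 (adjusted p = 0.565).

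Single genes of lipid and glycogen metabolism had some of the highest differences. The sphingolipid synthesis list as a whole had 5 of 18 genes higher in IAT than in liver and 9 lower, beside 35.1% and 19.6% of all sequences, with a median difference of -0.17. Against it stood Sptlc3, part of the palmitoyltransferase that opens sphingolipid synthesis (probe at chr2:139317296-139317355, build mm8 in the array files), which read 4.0, 4.2 and 4.59 in IAT and 0.35, 1.01 and 1.64 in liver. It was 18.8-fold above the pool in IAT, with a difference of 3.22 ± 0.19 (adjusted p = 1.38e-07). In liver it was dim, well above background on 6 of 12 arrays in the treated channel and on 1 of 12 in the pool channel, so its liver ratio and the difference are uncertain in size. Sptlc2, another part of that enzyme, was lower in IAT than in liver, at -0.09 ± 0.06 in IAT and 0.91 ± 0.13 in liver (difference -1.0, adjusted p = 2.72e-07). Glycerol kinase, which lets a cell reuse the glycerol of its own triglycerides and which white fat normally has little of, rose in IAT: Gk read 1.32, 2.36 and 2.86 in IAT and -0.45, -0.13 and -0.03 in liver (difference 2.49 ± 0.22, adjusted p = 2.49e-06). The related Gk2 read 1.81, 1.97 and 2.4 in IAT and -0.42, -0.27 and -0.15 in liver (difference 2.29 ± 0.09, adjusted p = 5.82e-09). Both kinases were above the pool in every IAT mouse and below it in every liver mouse. Gys2, the liver form of glycogen synthase, read 1.12, 3.21 and 3.52 in IAT and 0.08, 0.24 and 0.35 in liver (difference 2.68 ± 0.33, adjusted p = 4.00e-05), where the lowest IAT value was that of replicate 2. Ephx2, soluble epoxide hydrolase, averaged 2.86 ± 0.22 in IAT and 0.57 ± 0.10 in liver (adjusted p = 7.29e-09). Nabp1, which binds single-stranded DNA, averaged 2.95 ± 0.62 in IAT and 0.54 ± 0.35 in liver (adjusted p = 1.56e-05). Plin5, a droplet protein of tissues that oxidise fat, averaged 1.2 ± 0.62 in IAT and 0.00 ± 0.17 in liver (adjusted p = 0.00108), with overlapping mice.

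Genes that mark the adipocyte itself rose further in liver than in IAT. The adipocyte list had 2 of 10 measured genes higher in IAT than in liver and 6 lower; in IAT 4 rose over the pool and 2 fell, and in liver 8 rose and 2 fell. Over all sequences 35.1% were higher and 19.6% lower in IAT than in liver, and 36.6% rose in IAT and 18.3% in liver. The summed signal of the 13 markers on the array was 1.16 to 1.38 times the pool in IAT and 2.12 to 3.82 times in liver; bright members of that sum, Fabp4 and Cidec, were saturated on IAT arrays, which can bring its IAT ratio nearer to 1. Cfd (adipsin), a protease secreted by fat, gave the largest difference of all (probe at chr10:79295686-79295745, mm8). It read -2.46, -2.12 and -1.28 in IAT and 6.59, 6.74 and 6.87 in liver, 4.12-fold below the pool in IAT and 108-fold above it in liver, a difference of -8.79 ± 0.16 (adjusted p = 1.22e-11). Elovl7, an elongase of long fatty acids, read -2.32, -1.59 and -0.65 in IAT and 5.18, 5.34 and 5.5 in liver (difference -6.82 ± 0.22, adjusted p = 9.88e-10). The 12 samples fell into separate ranges by tissue for both, as they did for 28.25% of all sequences. Plin4, a droplet coat protein of fat, read -1.05, -0.83 and -0.73 in IAT and 1.91, 3.07 and 3.6 in liver (difference -3.85 ± 0.23, adjusted p = 1.30e-07). Retn (resistin), a hormone of mouse fat, read -0.82, -0.49 and -0.35 in IAT and 1.89, 2.29 and 2.75 in liver (difference -2.87 ± 0.13, adjusted p = 1.90e-08). Fabp4, which carries fatty acids inside adipocytes, averaged 0.24 ± 0.11 in IAT and 3.39 ± 1.02 in liver (adjusted p = 2.99e-05), and Lpl, which frees fatty acids from lipoproteins, -0.06 ± 0.17 in IAT and 2.8 ± 0.53 in liver (adjusted p = 6.77e-07). Both were saturated on all 12 IAT arrays, where a ratio can be too small. Cidec, a droplet protein that fuses droplets, rose in both tissues and more in liver (0.29, 1.45 and 1.77 in IAT, 2.89, 4.03 and 4.32 in liver, adjusted p of the difference 1.61e-05; saturated on 7 of 12 IAT arrays).

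**Figure D2:**
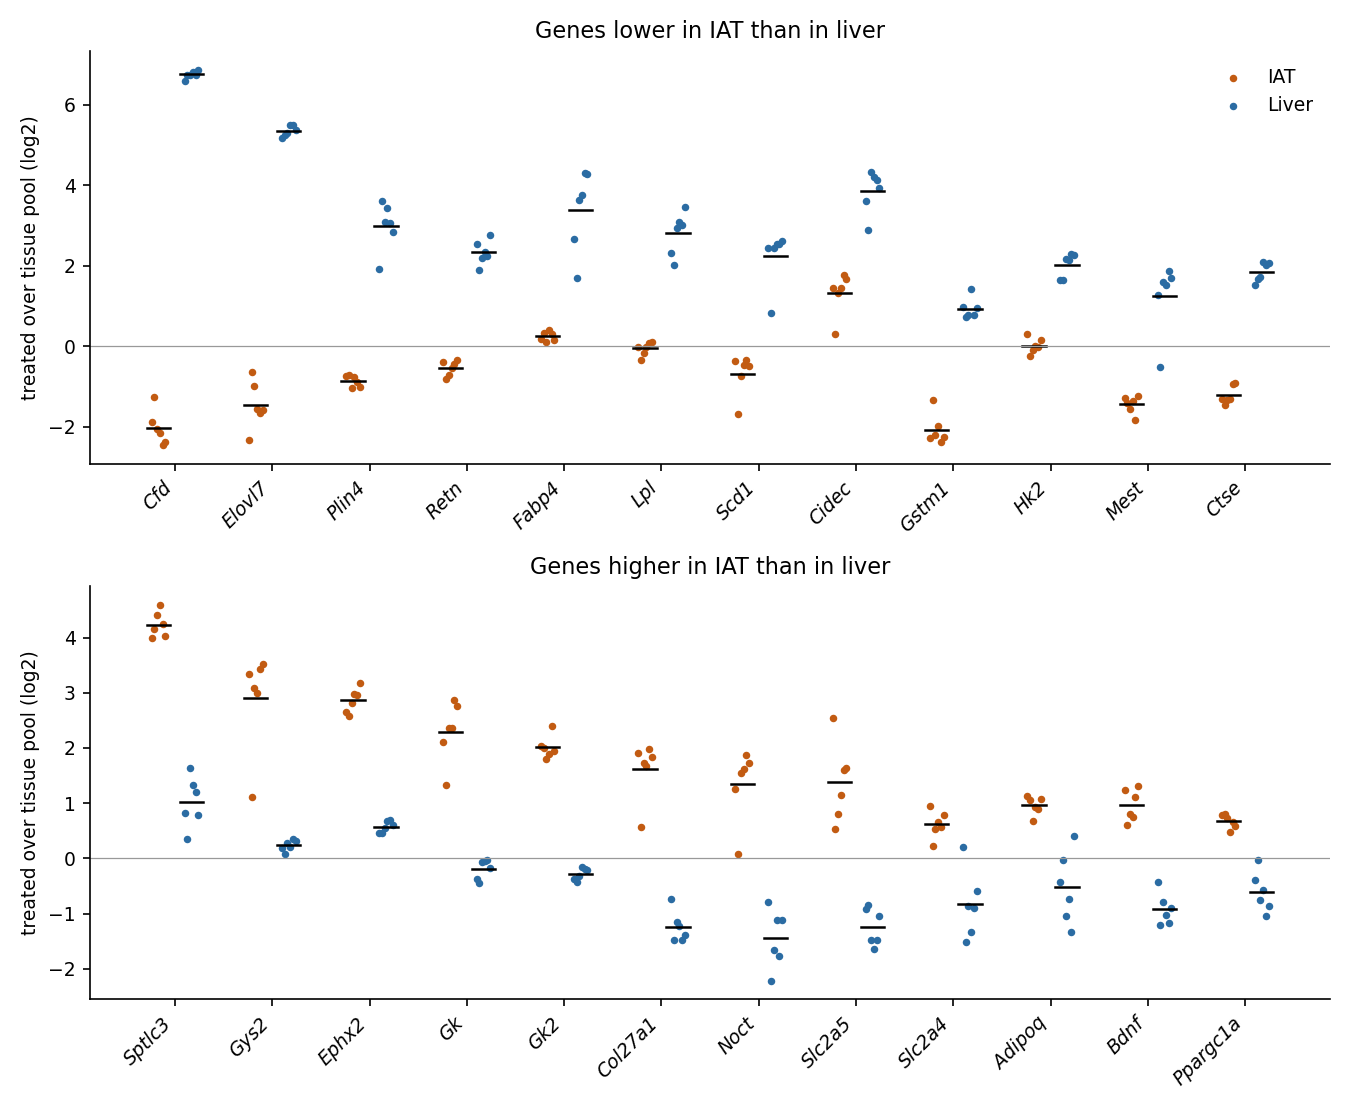
Log2 ratio over the tissue pool of each mouse (points) and mean of 6 mice (bar) at RSG 280 µmol/kg, IAT in orange left of liver in blue, for 12 genes lower in IAT than in liver (top) and 12 higher (bottom). In none of the 24 genes do the 2 tissues overlap, beside 28.25% of all sequences, and many of the genes were chosen for no overlap or a small p. The liver mean of Cfd is 6.75 and the IAT mean of Sptlc3, whose pool was dim in liver, is 4.24.

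Genes for the uptake of fatty acids were more often lower in IAT than in liver, and those for synthesis were not. In the list of uptake, binding and activation 10 of 19 genes were lower in IAT than in liver and 2 higher, with 9 risen in IAT and 12 in liver. Over all sequences 19.6% were lower in IAT than in liver and 35.1% higher, with 36.6% risen in IAT and 18.3% in liver. Cd36, a fatty acid transporter, averaged 0.00 ± 0.08 in IAT and 0.73 ± 0.19 in liver (difference -0.73, adjusted p = 2.06e-05). In fatty acid synthesis 12 of 16 genes rose in IAT and 9 in liver. For the difference 4 were higher in IAT and 3 lower, beside 35.1% and 19.6% of all sequences. The median difference was 0.11 for this list and 0.11 over all sequences. Scd1, which desaturates stearate, read -1.68, -0.49 and -0.35 in IAT and 0.82, 2.48 and 2.6 in liver (difference -2.91 ± 0.32, adjusted p = 1.43e-05), with replicate 2 the lowest in both tissues; it was saturated on 5 of 12 IAT arrays. Fasn, fatty acid synthase, averaged 1.52 ± 0.86 in IAT and 1.53 ± 1.4 in liver (adjusted p of the difference 0.984), and Me1, which supplies NADPH, 1.45 ± 0.57 in IAT and 2.1 ± 0.73 in liver (adjusted p = 0.125). Me1 was called lower in IAT with the replicate number as a block, with all treated samples in the fit, and without replicate 2 of liver or of both tissues. For Fasn the 95% interval of the difference, -1.32 to 1.29, leaves either side possible, since replicate 2 lay far below the other mice in both tissues. Srebf1, whose product switches on these genes, averaged 1.13 ± 0.39 in IAT and 0.02 ± 0.38 in liver (adjusted p = 0.000663), and Slc25a1, the citrate carrier that feeds them, 1.36 ± 0.50 in IAT and 0.30 ± 0.16 in liver (adjusted p = 0.000763). Glycolysis had 6 of 25 genes higher in IAT and 8 lower, and the pentose phosphate pathway 2 of 8 higher and 3 lower, beside 35.1% and 19.6% of all sequences. G6pdx, the first enzyme of the pentose phosphate pathway, read -0.07, 0.26 and 0.47 in IAT and 0.92, 1.99 and 2.29 in liver (adjusted p of the difference 4.58e-05). Hk2, the hexokinase of insulin-sensitive tissue, read -0.25, -0.01 and 0.29 in IAT and 1.64, 2.15 and 2.28 in liver (difference -2.01 ± 0.13, adjusted p = 3.37e-07). Of 19 lipoprotein genes 9 were higher in IAT than in liver and 4 lower, beside 35.1% and 19.6% of all sequences. Apoc1 averaged 1.12 in IAT and -0.01 in liver (adjusted p = 3.03e-07; saturated on 11 of 12 liver arrays). Scarb1, the HDL receptor, averaged 0.78 in IAT and -0.37 in liver (adjusted p = 1.98e-06), and Pltp, which moves phospholipid between lipoproteins, 0.35 in IAT and 1.87 in liver (adjusted p = 4.61e-06).

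Opposite responses with IAT up and liver down included Col27a1, a fibrillar collagen (probe at chr4:62820812-62820871, mm8). It read 0.56, 1.78 and 1.98 in IAT and -1.48, -1.31 and -0.74 in liver (difference 2.86 ± 0.22, adjusted p = 1.14e-06). Noct (nocturnin), a phosphatase with a daily rhythm, read 0.09, 1.59 and 1.88 in IAT and -2.21, -1.39 and -0.79 in liver (difference 2.8 ± 0.31, adjusted p = 1.65e-05). Slc2a5, the fructose transporter, read 0.53, 1.37 and 2.55 in IAT and -1.65, -1.26 and -0.85 in liver (difference 2.61 ± 0.29, adjusted p = 1.84e-05). In these 3 genes every IAT mouse was above its pool and every liver mouse below. Slc2a4, the insulin-regulated glucose transporter GLUT4, averaged 0.62 ± 0.24 in IAT and -0.83 ± 0.61 in liver (adjusted p = 0.000352). Adipoq (adiponectin), the insulin-sensitising hormone of fat, averaged 0.96 ± 0.17 in IAT and -0.52 ± 0.64 in liver (difference 1.49 ± 0.25, adjusted p = 0.000311), against the direction of most adipocyte markers. Its liver mice ran from -1.33 to 0.40. In liver Adipoq was dim, well above background on 6 of 12 arrays in the treated channel, so its liver ratio and the difference are uncertain in size. Bdnf, a neurotrophin, averaged 0.97 in IAT and -0.92 in liver (adjusted p = 1.72e-06), and Cth, which makes cysteine, 0.96 in IAT and -0.81 in liver (adjusted p = 2.06e-05).

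With IAT down and liver up, besides Cfd and Elovl7, stood several genes of unlike roles. Mest, which rises in fat that expands, read -1.83, -1.39 and -1.24 in IAT and -0.53, 1.55 and 1.87 in liver (difference -2.68 ± 0.34, adjusted p = 4.15e-05), where liver replicate 2 alone was below its pool. Gstm1, a glutathione transferase, read -2.38, -2.24 and -1.34 in IAT and 0.73, 0.86 and 1.42 in liver (difference -3.01 ± 0.17, adjusted p = 1.10e-07), and its close relative Gstm3 differed by -2.69 (adjusted p = 7.25e-08); the sequences of this family are alike, so that probes may share targets. Ctse, an aspartic protease, averaged -1.23 in IAT and 1.84 in liver (adjusted p = 6.20e-09), and Ifi27l2b, named for its induction by interferon, -2.47 in IAT and 3.07 in liver (adjusted p = 6.24e-09). Sdcbp2, a PDZ protein, was at -0.39 in IAT and 4.58 in liver (adjusted p = 2.30e-09). At 28 µmol/kg Ctse averaged -1.35 and Ifi27l2b -3.27 in IAT already.

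Genes for the output of glucose fell in liver and were little moved in IAT. Of 14 measured genes 5 were called above and 3 below the IAT pool, with a median of 0.04, beside 36.6% and 25.3% of all sequences. In liver 2 were above and 9 below the pool, with a median of -0.56, beside 18.3% and 24.1%. Of the 14, 11 were higher in IAT than in liver and none lower, beside 35.1% and 19.6%. G6pc1 (G6pc in the files), the glucose-6-phosphatase that releases glucose, averaged -0.04 ± 0.22 in IAT and -1.41 ± 0.62 in liver (adjusted p = 0.000533), and Fbp1 of gluconeogenesis -0.31 ± 0.49 in IAT and -1.05 ± 0.22 in liver (adjusted p = 0.00852). Slc2a2, the glucose transporter GLUT2, read -0.07, 0.27 and 0.51 in IAT and -0.51, -0.40 and -0.17 in liver (adjusted p = 0.000105). For these hepatic genes the IAT signal is low: of the 16 hepatocyte markers on the array, 9 stood above background in treated IAT. Of 21 genes of the urea cycle and amino acid breakdown 9 fell in IAT and 13 in liver, beside 25.3% and 24.1% of all sequences. Of these 21 genes 9 were higher in IAT than in liver and 2 lower, beside 35.1% and 19.6%. Asl, an enzyme of the urea cycle, fell in both, to -0.38 ± 0.08 in IAT and -0.87 ± 0.14 in liver (adjusted p of the difference 8.84e-05). Sult2a8, a sulfotransferase of mouse liver, read -0.44, -0.07 and 0.13 in IAT and -2.99, -2.5 and -1.22 in liver (difference 2.14 ± 0.27, adjusted p = 4.20e-05).

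Some genes responded alike. Called in both tissues with 1 sign, and with the 95% interval of the difference within 0.5 of 0, were 602 sequences that rose and 735 that fell. Of 20 genes of peroxisomal and omega oxidation 17 rose in IAT and 14 in liver, beside 36.6% and 18.3% of all sequences. In this list 7 were higher in IAT than in liver and 4 lower, beside 35.1% and 19.6% of all sequences. The list thus differed between the tissues about as often as all sequences did. Ehhadh, the bifunctional enzyme of peroxisomal oxidation and a classical PPAR target, read 1.48, 1.89 and 2.11 in IAT and 1.57, 1.69 and 1.77 in liver, a difference of 0.18 with an interval of -0.02 to 0.39; without replicate 2 of both tissues it was called (difference 0.25). Pex11a, which divides peroxisomes, averaged 1.02 ± 0.16 in IAT and 0.99 ± 0.22 in liver (interval -0.21 to 0.26). Acsl1, which activates fatty acids, averaged 0.96 in IAT and 1.1 in liver (interval -0.46 to 0.18; saturated on 6 of 12 IAT arrays). Pnpla2 (ATGL), which starts the breakdown of triglycerides, averaged 0.85 ± 0.10 in IAT and 0.74 ± 0.19 in liver. Gnai1, an inhibitory G protein subunit, and Pfkfb1, which sets fructose 2,6-bisphosphate, rose to 1.15 and 1.1 in IAT and to 1.28 and 1.14 in liver. Among genes that fell, Ethe1, a mitochondrial sulfur dioxygenase, was at -0.90 ± 0.08 in IAT and -0.76 ± 0.23 in liver, and Serpina3c at -1.05 ± 0.18 in IAT and -0.82 ± 0.25 in liver.

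Of the matrix genes listed, most fell in IAT and most rose in liver. Of 30 measured genes of collagens and matrix 23 were lower in IAT than in liver and 1 higher (median difference -0.87), with none risen and 17 fallen in IAT and 17 risen and 3 fallen in liver. Over all sequences 19.6% were lower in IAT than in liver and 35.1% higher. In IAT 36.6% of all sequences rose and 25.3% fell, and in liver 18.3% rose and 24.1% fell. Col4a2, of basement membranes, read -1.25, -0.89 and -0.73 in IAT and 0.04, 0.55 and 0.77 in liver (difference -1.39 ± 0.12, adjusted p = 3.07e-06). The exception within the list was Col15a1, at -0.43, 0.42 and 0.58 in IAT and -2.71, -1.42 and -1.35 in liver (difference 1.94 ± 0.24, adjusted p = 3.99e-05). Col27a1, named above with IAT up and liver down, is a collagen outside this list. Chemokines and cytokines had 11 of 21 lower in IAT and 2 higher; Ccl2, which attracts monocytes, read -1.86, -1.29 and -0.68 in IAT and 0.06, 0.22 and 0.94 in liver (adjusted p = 4.28e-05). Markers of some other cell types were lower in IAT than in liver as well, and those of others were not. Of 14 macrophage markers 11 were lower in IAT than in liver and none higher, and the summed signal of the 15 on the array was 0.39 to 0.70 times the pool in IAT and 0.94 to 2.04 times in liver. Lgals3 (galectin-3) averaged -1.29 ± 0.27 in IAT and 0.68 ± 0.56 in liver (adjusted p = 2.54e-05), and Cd14, the endotoxin co-receptor, -1.08 ± 0.16 in IAT and 0.39 ± 0.35 in liver (adjusted p = 7.93e-06). Fibroblast and progenitor markers were lower in IAT for 10 of 12, with a summed signal of 0.51 to 0.65 times the pool in IAT and 0.96 to 1.36 times in liver. Pericyte and smooth muscle markers were lower for 10 of 12, at 0.38 to 0.67 times the pool in IAT and 0.96 to 1.06 times in liver. Rgs5, a pericyte gene, read -2.14, -1.9 and -1.75 in IAT and -0.14, 0.25 and 0.54 in liver (difference -2.17 ± 0.11, adjusted p = 4.73e-08). Endothelial markers were lower for 11 of 13, at 0.84 to 0.94 times the pool in IAT and 1.08 to 1.33 times in liver: Cldn5, of tight junctions, averaged -0.24 in IAT and 0.62 in liver (adjusted p = 2.06e-06), while Kdr, the VEGF receptor, averaged 0.77 in IAT and 0.44 in liver (adjusted p = 0.00191). In liver 2 of 12 fibroblast and progenitor markers rose over the pool, as did 4 of 12 pericyte and smooth muscle markers, beside 18.3% of all sequences. Of 6 Kupffer cell markers 1 was lower in IAT than in liver and 0 higher. Of 6 hepatic stellate markers 3 were lower and 1 higher, and 1 of each of these 2 lists rose in liver. Of 5 T cell and 5 B cell markers 0 were called either way. In tissue RNA, fewer cells of a type and less RNA per cell cannot be told apart. The part of these cells in the results on matrix genes was not tested.

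Apart from these, a set of genes stood far below the pool in IAT and near it in liver. Tspan1, a membrane protein of epithelia (probe at chr4:115660576-115660635, mm8), read -6.65, -6.5 and -5.93 in IAT and -0.25, 0.27 and 0.37 in liver (difference -6.6 ± 0.14, adjusted p = 1.78e-11). Dmbt1, a mucosal glycoprotein, read -5.1, -5.06 and -4.6 in IAT and -0.54, -0.03 and 0.59 in liver, a difference of -4.99 (adjusted p = 2.89e-09). Adamdec1, a protease of gut mononuclear cells, read -6.3, -4.98 and -4.51 in IAT and -0.36, -0.07 and 0.61 in liver (adjusted p = 4.79e-08). The mice of the tissues did not overlap in these 3 genes, nor in 28.25% of all sequences. Krt8, a keratin of simple epithelia, read -4.05, -3.59 and -2.37 in IAT and 0.03, 0.42 and 0.59 in liver (adjusted p = 1.47e-07). Hnf4a, a transcription factor of liver and gut, averaged -4.36 ± 0.66 in IAT and -0.48 ± 0.18 in liver (adjusted p = 2.89e-07). Entpd8 and Lrrc19 were not well above background in treated IAT and were at least 12.1-fold and 19.9-fold lower than the IAT pool (adjusted p of the difference 6.13e-09 and 5.07e-08). Of 10 genes of intestinal epithelium that passed the filter in both tissues, a list written after these values were seen, 9 were lower in IAT and none higher. Over the 26 on the array the summed signal was 0.072 to 0.089 times the pool in every IAT mouse and 0.95 to 1.5 times in liver, and 22 of the 26 stood above background in treated IAT and 25 in the IAT pool, beside 10 each in liver. They were as low at the lower doses. Tspan1 averaged -6.27, -5.34 and -6.4 in IAT at 28, 84 and 280 µmol/kg, Krt8 -3.6, -3.66 and -3.5, and Hnf4a -4.68, -4.93 and -4.36. Under the S compound Tspan1 averaged -6.28. The same IAT pool is on all of these arrays, and the part of the pool in these values was not tested. Skeletal muscle markers varied between mice, at 0.10 to 1.39 times the pool in IAT and 0.70 to 0.97 times in liver, and red cell markers lay at 0.37 to 2.88 times in IAT and 0.35 to 5.20 times in liver.

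A contrast without the pools compares the change between 28 and 280 µmol/kg in the 2 tissues, since each pool cancels. It was called for 3080 of 23965 sequences (12.9%), 2014 with the greater rise in IAT and 1066 with the greater fall; without replicate 2 of both tissues at 280 µmol/kg, 3175 and 1523. Within IAT the dose change was called up for 3049 sequences and down for 1873, and within liver for 8 and 8. Mitochondrial genes stood on the IAT side here too: 32 of 33 genes of complex I, 21 of 22 of the citrate cycle, 20 of 21 each of fatty acid oxidation and of complexes III and IV, 12 of 15 of the ATP synthase and 33 of 42 of the mitochondrial ribosome, with 0 called the other way. The median over complex I genes in each IAT mouse was 0.04, 0.17 and 0.27 at 28 µmol/kg (lowest, median and highest of 6 mice), 0.35, 0.47 and 0.63 at 84 and 0.47, 0.62 and 0.72 at 280. In liver the same median was 0.09, 0.16 and 0.17 at 28 µmol/kg, 0.04, 0.16 and 0.22 at 84 and -0.02, 0.10 and 0.18 at 280. The tissues overlapped at 28 µmol/kg and were apart at 84 and 280. The intestinal list, by contrast, had 0 of 10 genes called for the dose change.

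**Figure D3:**
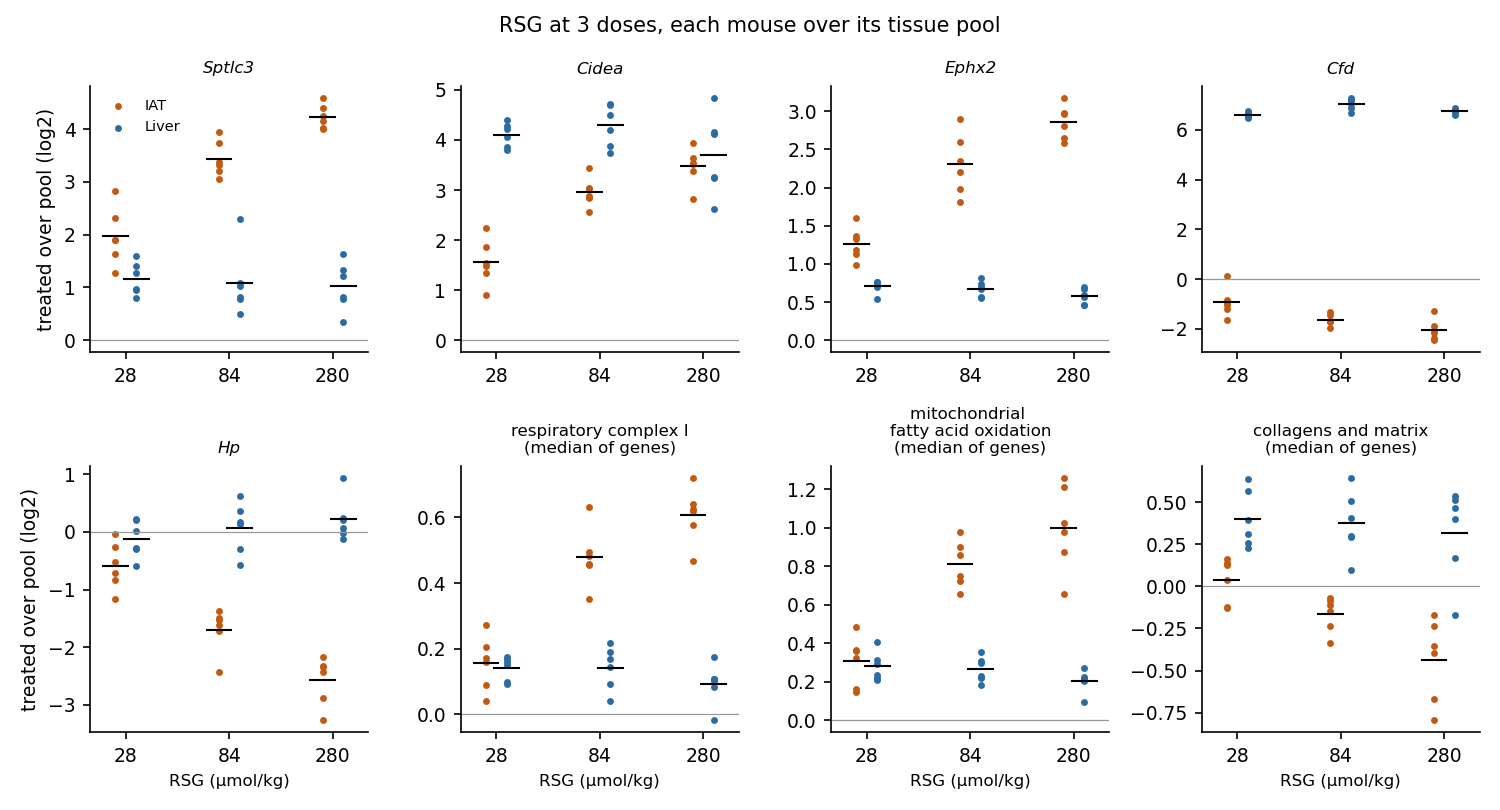
Log2 ratio over the tissue pool (vertical axes) against RSG dose in µmol/kg (horizontal axes, evenly spaced steps), 1 point per mouse and mean of 6 mice as a bar, IAT in orange left of liver in blue, for 5 genes and for the median over the genes of 3 lists. Sptlc3 in IAT runs 1.98, 3.44 and 4.24 with dose, and Cfd in liver is at 6.59, 7.05 and 6.75.

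Genes that had risen far in liver were about as high there at the lowest dose. Cfd in liver averaged 6.59, 7.05 and 6.75 at 28, 84 and 280 µmol/kg, Cidea 4.1, 4.29 and 3.71, and Plin4 3.12, 3.26 and 2.98. In IAT the ratios grew: Cidea averaged 1.56, 2.96 and 3.47, and its tissue difference of the dose change was 2.31 (adjusted p = 0.000542), so that IAT lay below liver at 28 and 84 µmol/kg and overlapped it at 280. Sptlc3 had a difference of 2.41 (adjusted p = 3.65e-05), with 1.98 in IAT and 1.17 in liver, where it was dim, at 28 µmol/kg. Fabp3, a fatty acid binding protein of muscle and brown fat, averaged -0.72, 0.16 and 0.88 in IAT and 1.36, 1.54 and 0.79 in liver (2.17, adjusted p = 0.00417). Ces1f, a carboxylesterase, averaged 0.05, 1.12 and 1.75 in IAT and 0.53, 0.50 and 0.35 in liver (1.87, adjusted p = 1.91e-06). Nabp1 had a difference of 1.89 (adjusted p = 0.000669). Falls in IAT grew as well. Hp (haptoglobin), which binds free hemoglobin, averaged -0.59, -1.7 and -2.57 in IAT and -0.12, 0.07 and 0.22 in liver (-2.31, adjusted p = 2.97e-05). Rbp4, the retinol carrier, averaged -0.72, -0.97 and -1.59 in IAT (-1.11, adjusted p = 0.00042). Hkdc1, a hexokinase, Dkk3, of the dickkopf family, and Tfr2, a transferrin receptor, had differences of -2.23, -1.66 and -1.94 (adjusted p = 0.000251, 0.00392 and 1.57e-05), with IAT means of -3.82, -2.23 and -1.81 at 280 µmol/kg.

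Under the S compound at 280 µmol/kg, set beside RSG with no test, Cfd averaged -2.58 in IAT and 4.99 in liver, Sptlc3 4.7 in IAT and 2.25 in liver, and Cpt1b 1.75 in IAT and 2.62 in liver. Retn averaged 2.33 in liver under RSG and -0.47 under S. The median difference of complex I genes was 0.53 under RSG and 0.56 under S at that dose, and that of the thermogenic list 0.89 under RSG and 0.25 under S.

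The proteasome had 20 of 31 genes higher in IAT than in liver and 1 lower (median difference 0.17), branched-chain amino acid breakdown 16 of 20 and 2 (0.44), and uncoupling proteins and mitochondrial carriers 13 of 21 and 2 (0.38). Over all sequences 35.1% were higher and 19.6% lower in IAT than in liver. The cytosolic ribosome went against the mitochondrial one, with 22 of 36 lower in IAT and none higher (-0.27), and none of its genes was called for the dose change. Glutathione and oxidative stress genes had 10 of 35 higher and 16 lower, and adipokines 3 of 13 higher and 8 lower, with a median difference of -1.09. Of 18 clock genes 12 fell in IAT and 7 in liver, beside 25.3% and 24.1% of all sequences. Of these clock genes 2 were higher and 4 lower in IAT than in liver, and of the genes for antigen presentation by MHC class II 0 of 7 were called either way (limma).

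**Figure D4:**
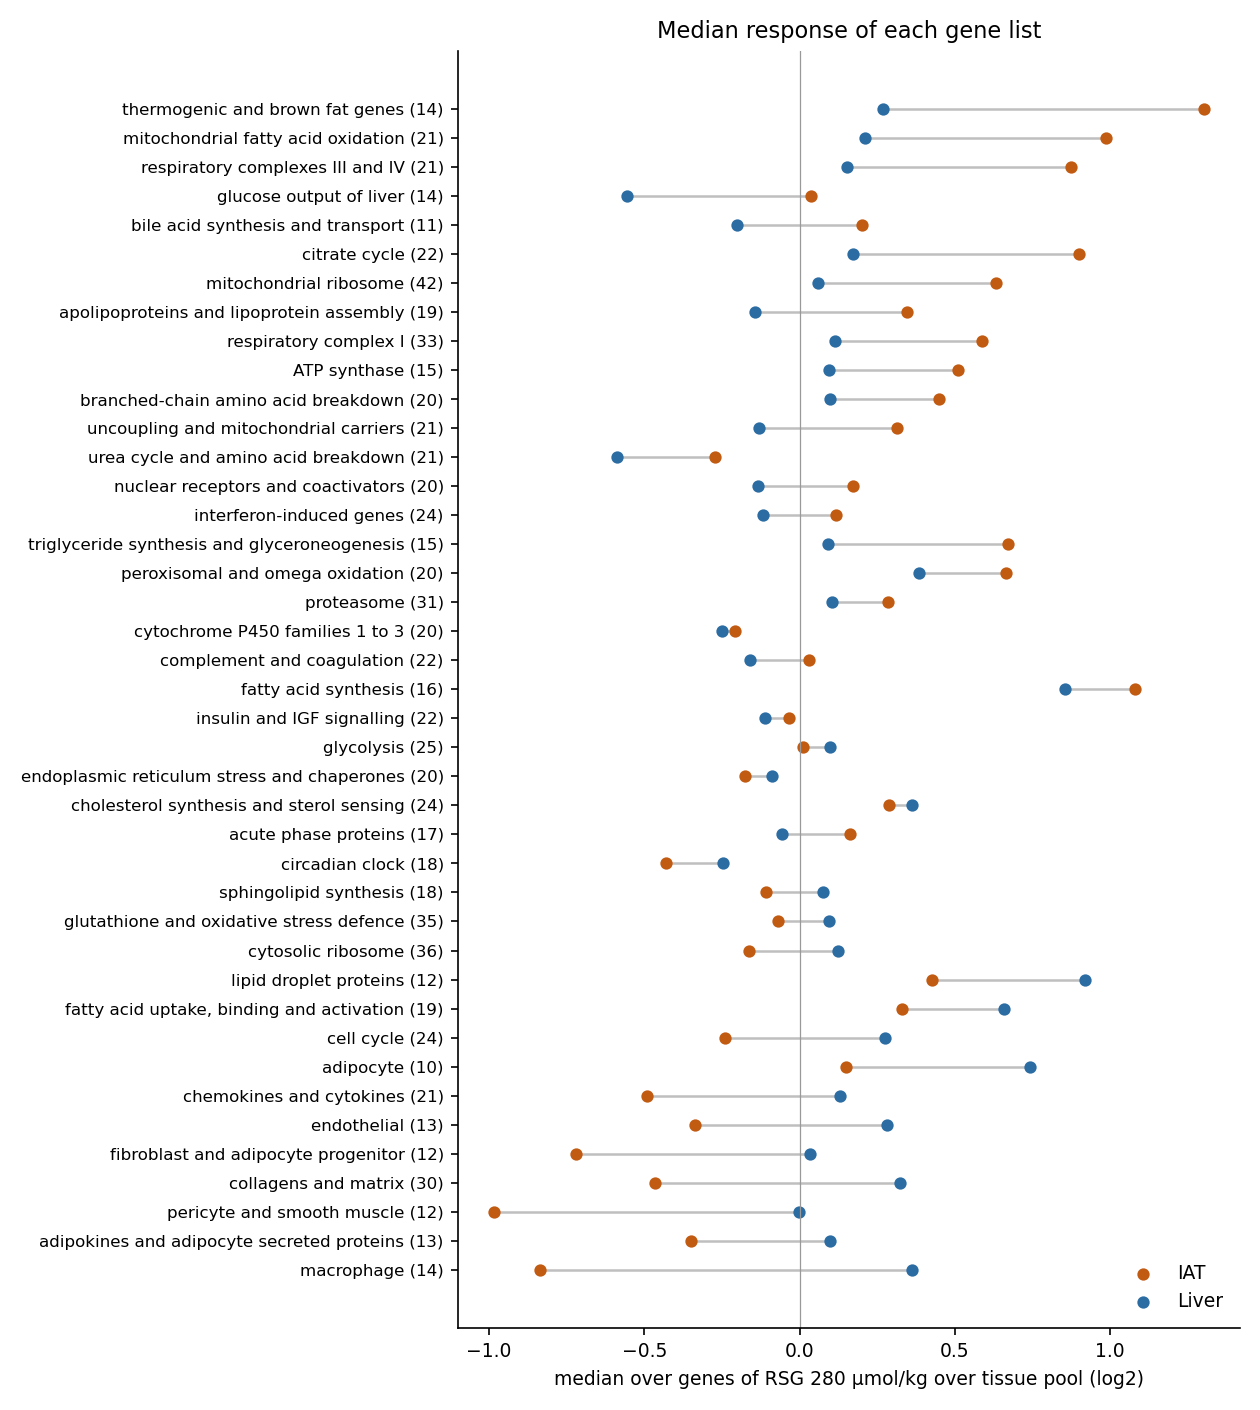
Median over the measured genes of each list (number of genes in brackets) of the log2 ratio over the tissue pool at RSG 280 µmol/kg, IAT in orange and liver in blue joined by a line, lists of at least 10 genes and 5 marker lists sorted by their median difference. Thermogenic genes are at the top (1.3 in IAT, 0.27 in liver) and macrophage markers at the bottom (-0.83 in IAT, 0.36 in liver).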

How the data were processed

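RNA of each mouse and of its tissue pool was hybridised by the authors to 2-colour whole-mouse Agilent arrays, 2 per mouse with exchanged dyes. Per the file headers, spots were read with Agilent Feature Extraction 9.5. The authors' software subtracted the background, normalised the dyes by lowess and deposited a log10 ratio of red over green processed signal, together with signal intensities and flags. These log10 ratios were turned to treated over pool by the dyes in the labels, converted to log2 and averaged over the pair of arrays (pairs correlated at -0.95 to -0.91 in IAT and -0.83 to -0.75 in liver before turning). Outlier spots and control spots were left out, leaving 41174 probes of 45018 spots, and repeated spots of a probe were averaged. Gene names came from the array files, updated through RefSeq accessions (23374 probes matched, 4830 names changed, 17800 kept as in the file).

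A sequence was tested if its treated or pool channel passed the well-above-background flag on 50% or more of a group's arrays, in both tissues: 30319 in IAT, 24474 in liver, 23965 in both. Differences between tissues, each tissue against its pool and the tissue difference of the dose change were tested with limma 3.58.1 (R 4.3.3), two-sided, with Benjamini-Hochberg adjustment over all 23965 and a threshold of 0.05. SD are over 6 mice; SE and 95% intervals come from limma. A gene is its brightest probe, and a list's median and counts run over its measured genes. Counts of a list are to be read beside the shares over all sequences, 35.1% higher and 19.6% lower in IAT than in liver. Lists hold 1 probe per gene, while these shares run over all probes tested. Of 11496 genes reduced to 1 probe, 3802 were higher in IAT and 2844 lower. A gene with a channel above background on none of a group's arrays has a bound, the treated or pool mean over the array's lowest signal well above background. Tested on simulated data with this comparison's sample sizes and 23965 sequences, 22, 62, 86 and 100% of changes of 0.3, 0.6, 1 and 2 on the log2 scale were called, 50 of each size, with 12 false calls. Only 200 sequences were changed there, while 54.7% of all were called in the data, and the adjusted p depends on that share. Values were also drawn independently, without a mouse that stands apart. These rates therefore do not give the recovery or the false calls of this comparison. The number of arrays limits the precision.

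The members of this comparison and the gene lists were chosen with earlier results of these data known. Genes named are the largest differences with no overlap between tissues, the largest opposite and like responses, the largest dose changes and bounds, for each list the 3 smallest p-values and the strongest member against the majority, and genes that the study names; genes outside this rule are marked where they are named, and Mrps9 and Uqcrc1 are shown by the promoter rule. Alternatives were normexp with loess, the authors' ratio table (deposited log10 ratios, r = 0.971 to 0.995 with those used), median centring and other filters. Further ones were all 72 treated samples in 1 fit, tissue weights, replicate number, scan day or slide as a block, other probe summaries, the study's thresholds and leaving out samples. Promoters came from RefSeq.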

Additional observations from a re-analysis of the deposited data

Results flagged for a closer look

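A mouse lay far from the other 5 of its group, with a gap above Dixon's 95% critical value, in 40 of 192 groups of 6 values of the named genes. Chance flags about 1 in 20 groups. Replicate 2 was that mouse in 35 of the 40, 22 in IAT and 13 in liver. Values below are its log2 ratio over the pool, with the range of the other 5 mice in brackets. For fatty acid synthesis, replicate 2 of IAT gave Fasn -0.17 (1.56 to 2.08), Me1 0.34 (1.5 to 1.95), Scd1 -1.68 (-0.75 to -0.35), Slc25a1 0.36 (1.42 to 1.79) and Srebf1 0.33 (1.23 to 1.34), and replicate 2 of liver Fasn -1.29 (1.83 to 2.35), Me1 0.62 (2.21 to 2.48) and Scd1 0.82 (2.43 to 2.6). For droplets, oxidation and brown fat, replicate 2 of IAT gave Acsl1 0.36 (0.94 to 1.26), Cidec 0.29 (1.32 to 1.77), Cpt1b 1.17 (1.58 to 1.82), Dio2 -0.24 (2.0 to 2.67), Elovl3 1.93 (2.96 to 3.23), Plin5 0.013 (1.18 to 1.68) and Ppara 1.03 (1.58 to 1.8), and replicate 2 of liver Elovl3 1.32 (2.06 to 2.42). For matrix genes it gave Col15a1 -0.43 (0.33 to 0.58) and Col27a1 0.56 (1.68 to 1.98) in IAT and Col15a1 -2.71 (-1.51 to -1.35) in liver. The other IAT values were Cth -0.087 (1.03 to 1.36), Gstm1 -1.34 (-2.38 to -2.0), Gstm3 -1.18 (-1.97 to -1.68), Gys2 1.12 (3.0 to 3.52), Krt8 -2.37 (-4.05 to -3.49), Mrps9 0.42 (0.62 to 0.74), Nabp1 1.71 (3.02 to 3.42) and Noct 0.085 (1.26 to 1.88). The other liver values were Hnf4a -0.12 (-0.61 to -0.47), Hp 0.93 (-0.12 to 0.24), Mest -0.53 (1.26 to 1.87), Nabp1 -0.14 (0.57 to 0.82), Pfkfb1 0.24 (1.21 to 1.47), Pltp 1.15 (1.84 to 2.16), Rbp4 0.23 (-0.23 to -0.089) and Tspan1 -0.25 (0.14 to 0.37). Apart from replicate 2, IAT replicate 1 stood apart for Cd14 -1.38 (-1.09 to -0.93), liver replicate 3 for Adamdec1 0.61 (-0.36 to -0.02), liver replicate 4 for Gstm1 1.42 (0.73 to 0.96) and liver replicate 1 for Gtl2 -2.86 (-3.02 to -2.96) and Rian -3.63 (-4.28 to -4.17).

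The change between 28 and 280 µmol/kg differed between the tissues, by a test of that difference itself in limma, for 3080 sequences. Among the named genes chosen for it, the change in IAT exceeded that in liver by 2.41 for Sptlc3, 2.31 for Cidea, 2.17 for Fabp3, 1.89 for Nabp1 and 1.87 for Ces1f, and the change in IAT minus that in liver was -2.31 for Hp, -2.23 for Hkdc1, -1.94 for Tfr2 and -1.66 for Dkk3.

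Ucp1, the uncoupling protein of brown fat, was well above background in IAT alone and so entered no comparison of the tissues. It averaged 3.27 over the IAT pool, with mice at 2.38 to 3.54.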

How the results depend on the processing

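The directions of the 95 named differences and of the list medians were recomputed under the alternatives and without each of the 12 samples, except that Dio2, Entpd8, Hkdc1, Lrrc19, Mirg, Rian and Sptlc3 did not pass the filter on both channels. In the settings run, 89 named genes kept their side of the threshold, none lost its call, and no gene called in either fit reversed. A change of sign in a gene called in neither fit, such as Fasn, was not counted. Most named genes were chosen from these data for a small p or for no overlap. Me1 became called with the replicate block, with all treated samples in the fit and without replicate 2 of liver or of both tissues. Ehhadh and Pfkfb1 became called without replicate 2 of both tissues or of 1 of them, and Gnai1, Pparg and Serpina3c with median centring. Pparg was also called with all treated samples in the fit and, like Serpina3c, without IAT replicate 1, and Serpina3c without liver replicate 4. With an unadjusted p under 0.001 and 1.3-fold in place of the adjusted p, 3518 sequences were higher in IAT than in liver and 2461 lower, 109 had IAT up and liver down and 189 IAT down and liver up. Both rose more in IAT for 48 and in liver for 27, both fell more in IAT for 36 and in liver for 7, and both rose or both fell with no called difference for 316 and 213. Against the pools 3578 were higher and 2437 lower in IAT, and 1365 and 1450 in liver, and the dose change gave 992 and 447. With normexp and loess, 970 had IAT up and liver down, and 55.5% of the calls were higher in IAT. With all 72 treated samples in 1 fit, 2223 had IAT up and liver down, and both rose more in IAT for 1064. In that fit both fell more in IAT for 537 and in liver for 336, and the dose change gave 3058 and 1761. Without replicate 2 of both tissues, an alternative added after seeing the data, 2496 had IAT up and liver down, both rose more in IAT for 1331 and in liver for 317, both fell more in IAT for 691 and in liver for 447, and the dose change gave 3175 and 1523.

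Whether equal replicate numbers are the same mouse is not given by the labels. The correlation of the deviations of same-numbered samples was 0.07 to 0.24, not above 0.1 in every pair, so the tissues were tested unpaired; as a hint from the data only, 5 of 6 samples in each tissue correlated best with their own number. With the number as a replicate block, both rose more in IAT for 1134 sequences, and the other counts stayed within 1.5 times. Scan day and slide as random blocks (consensus correlation -0.05 and 0.16), tissue weights, both channels above background, no filter, the ratio table and median centring moved no count by over 1.5 times. The tissues shared no scan day, so the block for scan day could not test an effect of day on their difference. List medians moved by more than the spread between mice in 12 recomputations under alternatives and in 5 without 1 sample, and by less in 732 and 739. With median centring the median difference of the proteasome list was 0.09, against 0.17 as measured, and with normexp and loess that of the uptake list was -0.13, against -0.41. Without replicate 2 of both tissues that of the urea cycle list was 0.14, against 0.37.

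Without each sample in turn, 7551 to 9367 sequences were higher in IAT and 4326 to 5174 lower. Opposite responses ranged over 1076 to 2075 (IAT up) and 817 to 1335 (IAT down). Both rose more in IAT for 461 to 1088 and in liver for 132 to 253, both fell more in IAT for 242 to 555 and in liver for 127 to 359, and those with no called difference were 991 to 1216 up and 1095 to 1477 down. Against the pools IAT gave 7766 to 9494 and 5442 to 6446, and liver 3444 to 5017 and 4460 to 6669. The dose change gave 1632 to 3207 and 827 to 1523. Leaving out IAT replicate 2, liver replicate 2 or liver replicate 3 moved such a count by over 1.5 times. Without IAT replicate 3, 4 or 6 both fell more in liver for 128, 127 and 137 sequences, against 207 with all samples. The cause was not tested. Signal over background was lower in liver than in IAT, and its part in the number of calls was not tested.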

Other observations

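Sequences that were above background in IAT alone could not be compared with liver. Of 6354 such sequences 963 were higher and 1810 lower than the IAT pool. Beside Ucp1, Mbnl3, a splicing regulator, averaged 2.67, Rbp7, a retinol-binding protein, 2.58, and Cox8b, the muscle and brown fat form of a complex IV subunit, 1.79. Lep, the leptin gene, averaged -0.79 and Nnat, an imprinted gene, -1.46. Among the lowest were genes of intestinal epithelium, with Clca1 at -6.54, Lypd8 at -5.71 and Agr2 at -5.25. These genes were chosen after their values were seen.

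The maternally expressed long non-coding RNAs of 1 imprinted region on chromosome 12, also chosen after their values were seen, fell in liver and stayed near the pool in IAT. Rian read -0.17, 0.49 and 0.87 in IAT and -4.28, -4.18 and -3.63 in liver, a difference of 4.57 ± 0.16 (limma, adjusted p = 1.89e-09). Gtl2 (Meg3) read -0.43, -0.29 and -0.02 in IAT and -3.02, -2.97 and -2.86 in liver (difference 2.71 ± 0.08, adjusted p = 2.78e-10), and Mirg -0.42, 0.48 and 0.80 in IAT and -2.57, -2.48 and -1.93 in liver (difference 2.72 ± 0.20, adjusted p = 6.43e-07). The liver ratios were as low at the other doses: at 28, 84 and 280 µmol/kg Gtl2 averaged -3.02, -3.05 and -2.96, and Rian -4.28, -3.86 and -4.11. The tissue difference of the change between 28 and 280 µmol/kg was -0.44 for Gtl2 (adjusted p = 0.00758) and, not called, -0.45 for Rian (adjusted p = 0.283). All liver arrays share 1 pool, and its part in these values was not tested.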
